A study of Mus musculus with 10 samples.

Results

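MHC class I antigen presentation was followed through 10 genes in bulk RNA sequencing of 10 B16F10 tumors. The genes were taken by symbol (*H2-K1*, *H2-D1*, *B2m*, *Tap1*, *Tap2*, *Tapbp*, *Psmb8*, *Psmb9*, *Nlrc5* and *Erap1*), and all 10 were found among the 55401 gene rows of the count files and passed the filter on low counts, which 15821 genes passed. B16F10 is a mouse melanoma line, and 5 tumors were grown from *Mir25* knockout (KO) cells and 5 from cells with a non-targeting control (NTC) guide. The KO was made in the tumor cells with CRISPR-Cas9, so the host cells in each tumor carry *Mir25* in both groups, and whether the KO cells were 1 clone is not given in the sources used here. All mice were C57BL/6J, female and 9 to 12 weeks old per the study's methods, and all received Comb, which is the GVAX vaccine (1000000 irradiated B16 cells that secrete GM-CSF, on days 1 and 4) with αPD-1 (10 mg/kg on days 6, 9 and 12). Tumors were taken on day 15 after injection of 50000 B16 cells per the labels, and the methods give another number of injected cells. No untreated tumor and no isotype group was analysed here.

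MHC class I molecules display peptides from inside the cell to CD8+ T cells. The proteasome cuts proteins into peptides, the TAP transporter carries them into the endoplasmic reticulum, tapasin and trimming enzymes fit them, and the heavy chain with its β2-microglobulin partner takes the loaded peptide to the surface. Interferon-γ raises most genes of the pathway, in part through IRF1 and NLRC5, and B16F10 cells are known for low surface class I at rest that interferon-γ raises. In bulk tumor RNA, reads of these genes come from melanoma cells and from infiltrating cells alike, and fewer cells of a type cannot be told apart from less RNA per cell.

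Between 23243707 and 27006075 reads per tumor lay on genes in the KO group, and between 11896643 and 28682130 in the NTC group. NTC replicate 1 stood apart: it had the lowest total, 42.9% of the reads in its file lay outside genes against 17.5 to 28.2% in the other 9 tumors, reads fell on 33193 genes (22192 to 25435 elsewhere), and its normalization factor was 0.628 against 0.968 to 1.11. Results are therefore given with and without it. *Mir25* has 1 row in the files and no read in any tumor, so the counts do not check the knockout. Melanoma cell markers summed to 12227 to 20280.1 CPM in KO and 11684 to 22262 CPM in NTC tumors, so every library carried the labelled tumor type. CPM is the number of reads on a gene scaled to a common library total. The lowest count of any of the 10 genes in any tumor was 648 reads.

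Sequences upstream of the heavy chain genes and *B2m* are shown because these 3 genes had the steepest slopes on leukocyte content over the 10 tumors below, and because class I promoters are known for an X and Y box module that NLRC5 acts on. Windows of 250 bases before the gene start came from RefSeq on GRCm38.p6, and 8 of the 10 genes had one (*Tap2* and *Nlrc5* did not). A pair of TGACG (the core of the X2 box) and ATTGG (the Y box) 20 bases apart, searched on both strands, lay in 3 of the 8 and in 30 of all 32851 windows (0.0913%). The spacing was chosen after the sequences were seen. Capitals mark the boxes, and each stretch runs 5′ to 3′ on the gene's strand, from chr17:34000359-34000388 (*H2-K1*, minus strand), chr17:35262993-35263022 (*H2-D1*, plus strand) and chr2:122147609-122147638 (*B2m*, plus strand).
H2-K1: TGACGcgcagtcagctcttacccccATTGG
H2-D1: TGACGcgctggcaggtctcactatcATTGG
B2m: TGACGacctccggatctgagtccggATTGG
Of the 30 bases, *H2-K1* and *H2-D1* shared 23, whereas *B2m* shared 13 with *H2-K1* and 12 with *H2-D1*. Besides the boxes, then, the *B2m* stretch has little in common with the heavy chain stretches. Both boxes taken alone are frequent, since TGACG lay in 17.8% and ATTGG in 33.8% of all windows.

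The heavy chain genes also carried GGGGATTCC, a κB sequence, followed by TTTCACTTC, the reverse complement of a match to the interferon-response sequence GAANNGAAA. GGGGATTCC lay in 0.213% and GAANNGAAA in 6.31% of all windows on either strand. Of the 8 genes only *H2-K1* and *H2-D1* had an exact match to either. Variants with another spacing were not searched, and the *B2m* window holds gaaactgaaa, which GAANNGAAA does not match. The stretches lie at chr17:34000429-34000458 for *H2-K1* and chr17:35262923-35262952 for *H2-D1*, and capitals mark both matches.
H2-K1: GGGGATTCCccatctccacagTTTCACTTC
H2-D1: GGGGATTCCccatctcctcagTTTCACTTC
They share 29 of 30 bases. The *H2-D1* stretches lie upstream of the RefSeq start but inside the first exon of a longer transcript in GENCODE M21. The windows of *Tapbp*, *Psmb8*, *Psmb9* and *Erap1* also lie within the GENCODE M21 spans of these genes. Matches and absences there depend on the RefSeq start. The interferon-γ-activated sequence TTCNNNGAA was found in the *Psmb8* window and in 7.02% of all windows. *Tap1* and *Psmb9* start 226 bases apart on chromosome 17 and run in opposite directions, so their windows overlap. The stretch at chr17:34187458-34187487 lies in both windows and holds a single TGACG, in capitals and read on the *Tap1* strand.
Tap1: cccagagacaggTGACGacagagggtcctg
These matches describe the letters in the windows and were not tested for factor binding.

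Levels per tumor came first. All values are CPM normalized by TMM factors, which adjust library totals for differences in composition, and groups are given with the mean ± SD of 5 tumors. *H2-K1* and *H2-D1* encode the classical heavy chains of C57BL/6 mice, *H2-K1* at chr17:33996017-34000347 and *H2-D1* at chr17:35262730-35267499 (GRCm38, GENCODE M21). *H2-K1* measured 1795, 2385, 1730.0, 883 and 2560.5 CPM in KO replicates 1 to 5 and 1831, 1108, 1640.4, 815 and 1848 CPM in NTC replicates 1 to 5. KO replicates 2 and 5 lay above all NTC tumors, while KO replicate 4 was close to the lowest NTC tumor. *H2-D1* measured 2132, 3196, 1951, 1044 and 3464 CPM in KO tumors (2357 ± 983) and 2088, 1249, 1816, 907 and 2047 CPM in NTC tumors (1621 ± 521). Here KO replicates 1, 2 and 5 lay above all NTC tumors, the first of them narrowly. The order of the tumors was nearly that of *H2-K1*, and over the 10 tumors the log2 CPM of both genes had a Pearson r of 0.99, the highest of the 45 pairs among the 10 genes.

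*B2m*, on chromosome 2, encodes β2-microglobulin, the light chain without which the heavy chain does not reach the surface stably. It measured 2442, 3248, 2188, 1444 and 3805 CPM in KO tumors and 3749, 1908, 2601, 1515 and 2599.8 CPM in NTC tumors. Its level in NTC replicate 1 was the highest of the NTC group and close to the highest KO tumor, whereas both heavy chains were well below their highest KO tumor there. Per kilobase of exon, *B2m* was the most abundant of the 10 genes (3053 ± 1072 CPM per kb in KO and 2877 ± 989 in NTC tumors, SD, n = 5), followed by *H2-D1* (914 ± 381 and 629 ± 202) and *H2-K1* (637 ± 225 and 493 ± 158). The other 7 genes lay between 32.1 (*Tap2*) and 86.9 (*Psmb8*) CPM per kb in KO tumors and between 29.4 and 70.3 in NTC tumors. Exon length here is the union of all annotated exons, and *H2-D1* and *H2-K1* overlapped within their spread.

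*Tap1* and *Tap2* encode the paired subunits of the peptide transporter. *Tap1* measured 389, 446, 367, 288 and 461 CPM in KO tumors and 298, 364, 436, 274 and 472 CPM in NTC tumors. *Tap2* measured 126, 132, 127, 81.0 and 141 CPM in KO tumors and 87.3, 98.5, 140.3, 66.2 and 164 CPM in NTC tumors. For both genes the single highest tumor was NTC replicate 5 and the lowest NTC replicate 4, so the NTC group enclosed the KO group. *Tapbp* encodes tapasin, which bridges TAP and the empty heavy chain. It measured 311, 321, 241, 222 and 401 CPM in KO tumors and 255, 213, 275, 170.2 and 325 CPM in NTC tumors. KO replicate 5 was above every NTC tumor, and the remaining KO tumors lay within the NTC range.

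*Psmb8* and *Psmb9* encode inducible catalytic subunits that replace standard ones in the immunoproteasome. *Psmb8* measured 283, 384, 285, 149 and 369 CPM in KO tumors and 241, 169, 292, 157 and 331 CPM in NTC tumors. *Psmb9* measured 173, 226, 201, 111 and 202 CPM in KO tumors and 122, 154, 211, 124 and 216 CPM in NTC tumors. KO replicate 4 was the lowest of all 10 tumors for both subunits. *Nlrc5*, on chromosome 8, encodes the transactivator of class I genes, and *Erap1*, on chromosome 13, the aminopeptidase that trims peptides in the endoplasmic reticulum. *Nlrc5* measured 420.1, 335, 334, 293 and 364 CPM in KO tumors and 294, 303, 372, 310.1 and 383 CPM in NTC tumors. Its highest tumor was only 1.43 times its lowest, the narrowest range of the 10 genes, against 3.82 times for *H2-D1*, the widest. *Erap1* measured 323, 342, 287, 273 and 364 CPM in KO tumors and 294, 260.4, 299, 220.4 and 307 CPM in NTC tumors. KO replicates 1, 2 and 5 exceeded every NTC tumor and NTC replicates 2 and 4 were below every KO tumor. For all 10 genes the groups overlapped.

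The lowest tumor of each gene was NTC replicate 4 (6 genes) or KO replicate 4 (the other 4), and KO replicate 5 was highest for 5. In KO replicate 4 the skeletal muscle markers summed to 172 CPM, against 0.659 to 32.2 CPM in the other 9 tumors. The part of this admixture in the low values was not tested.

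**Figure D1:**
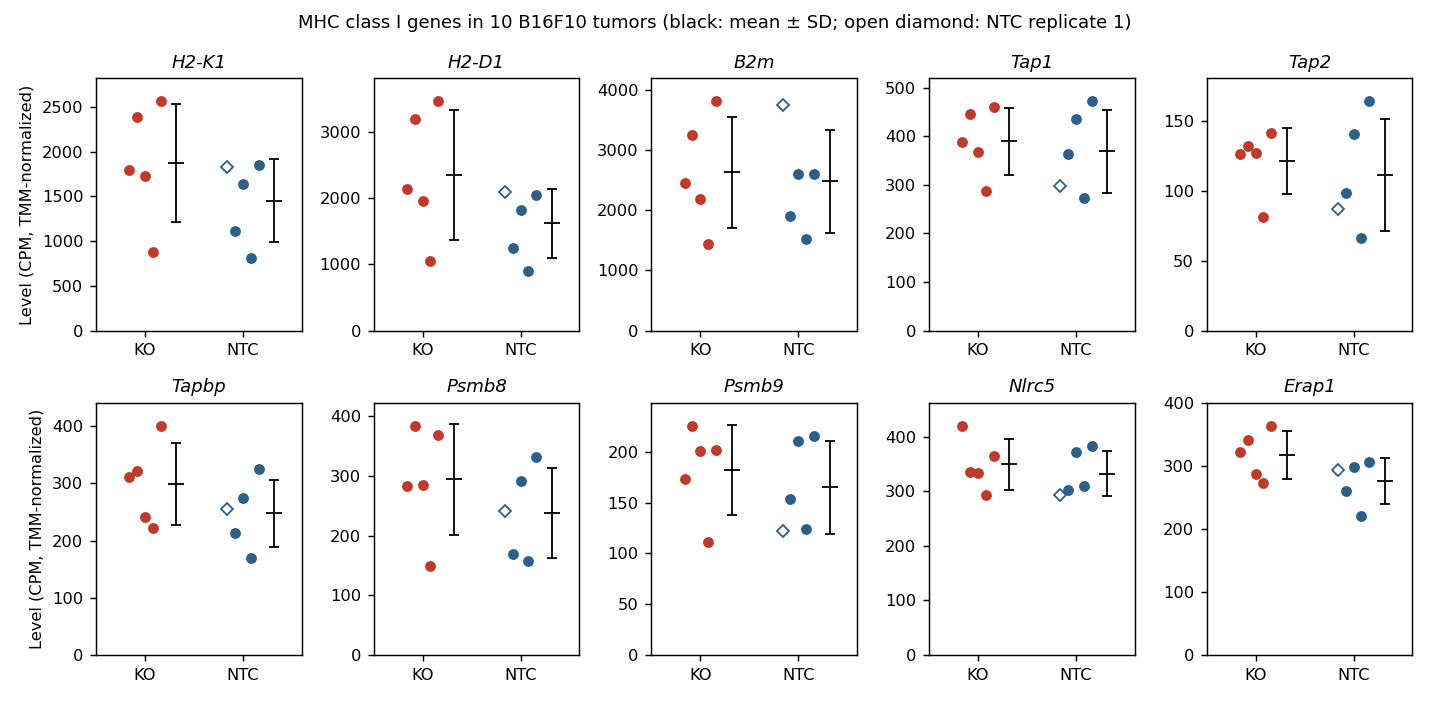
Level of each of the 10 MHC class I genes (vertical axis, TMM-normalized CPM from 0) in 5 KO and 5 NTC tumors, 1 point per tumor, with the group mean ± SD in black and NTC replicate 1 as an open diamond. KO and NTC tumors overlap for every gene, and the lowest tumor of each gene is KO replicate 4 or NTC replicate 4.

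The first comparison asked whether loss of *Mir25* in the tumor cells changed the class I genes under Comb. The fitted log2 fold changes, KO over NTC, were positive for all 10 genes over the 10 tumors, but small beside the spread between tumors. A gene was called where its absolute log2 fold change exceeded 1 and its Benjamini-Hochberg adjusted p fell under 0.05 in edgeR's quasi-likelihood test. None of the 10 genes was called, against 0.0190% of all genes tested (3 of 15821), and none reached an unadjusted p under 0.05, against 8.85% of all genes. DESeq2 also called 0 of the 10, against 0.607% of all genes. *H2-D1* had the largest log2 fold change, 0.54 (standard error 0.33, edgeR adjusted p = 0.668), which is 1.45-fold. *H2-K1* had 0.37 (standard error 0.31, edgeR adjusted p = 0.754) and *B2m*, their partner chain, only 0.09 (standard error 0.30, edgeR adjusted p = 0.949). Values for the other 7 genes ran from 0.07 (*Nlrc5*) to 0.31 (*Psmb8*), and *Erap1*, with 0.20 and the smallest standard error (0.12, as for *Nlrc5*), had the smallest edgeR adjusted p of the 10, at 0.645. The median over the 10 genes was 0.17, and over all genes tested 0.01.

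Without NTC replicate 1 the heavy chains moved to 0.43 (*H2-K1*) and 0.61 (*H2-D1*), and *B2m* to 0.25. The transporter, *Psmb9* and *Nlrc5* then lay at or near 0 (*Tap1* -0.02, *Tap2* 0.02, *Psmb9* 0.02). Again none of the 10 genes was called by edgeR, against 0.106% of the 16078 genes tested, and 0 had an unadjusted p under 0.05, against 20.1% of all genes. The positive sign is therefore not kept by every gene in the absence of this library, and for *B2m*, *Tap1*, *Tap2* and *Nlrc5* it also turned when certain other single tumors were left out.

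**Figure D2:**
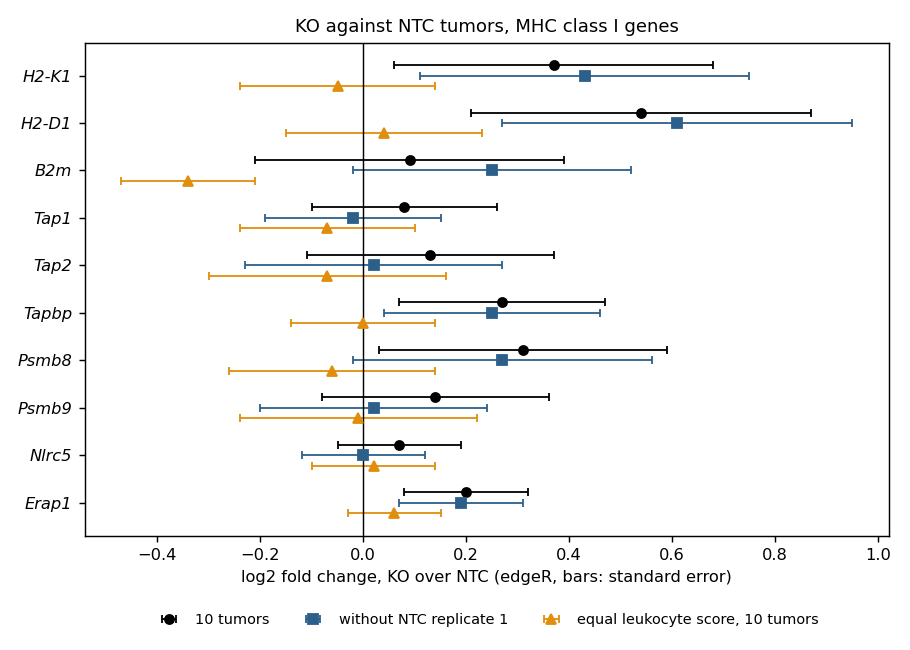
log2 fold change, KO over NTC, of each MHC class I gene (horizontal axis) with its standard error from edgeR, over 10 tumors (black), without NTC replicate 1 (blue) and at equal leukocyte score over 10 tumors (orange). *H2-D1* has the largest value over 10 tumors, 0.54, and *B2m* the lowest at equal leukocyte score, -0.34.

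The second comparison set the class I genes against leukocyte content. The leukocyte score of a tumor was the mean log2 CPM of 10 genes expressed across leukocytes, among them *Ptprc*, which encodes CD45. It was 6.48, 7.25, 5.59, 5.37 and 7.50 in KO replicates 1 to 5 and 7.10, 4.37, 5.65, 4.38 and 6.08 in NTC replicates 1 to 5. The groups overlapped, with a mean difference of 0.92 over the 10 tumors (exact two-sided permutation p = 0.214) and of 1.32 without NTC replicate 1 (exact p = 0.0952). *Ptprc* itself ranged from 53.1 to 656 CPM. Slopes were fitted for every gene with genotype in the model, as log2 change per 1 unit of score, and called at an adjusted p under 0.05.

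Most of the class I genes rose with leukocyte RNA. All 10 slopes were positive, and 6 of 10 were called higher, against 22.6% of all genes tested. Over the 10 tumors the heavy chains and *B2m* had the steepest slopes: *H2-D1* 0.50 (standard error 0.09, edgeR Benjamini-Hochberg adjusted p = 0.00117), *B2m* 0.45 (standard error 0.06, adjusted p = 0.000161 from edgeR) and *H2-K1* 0.44 (standard error 0.09, adjusted p = 0.00229 from edgeR). A doubling of leukocyte RNA thus went with 1.41 times the *H2-D1* level. *Psmb8* followed with 0.37, *Tapbp* with 0.28 and *Erap1* with 0.15, at edgeR adjusted p of 0.0121, 0.00608 and 0.0136. The transporter genes, *Psmb9* and *Nlrc5* did not pass: *Tap2* had 0.21, *Psmb9* 0.15, *Tap1* 0.14 and *Nlrc5* 0.06, with edgeR adjusted p from 0.175 to 0.497. The differences between the slopes of these genes were not tested. The median slope of the 10 genes was 0.24, and of all genes tested -0.01.

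This division depended on NTC replicate 1, whose leukocyte score was high while its *Tap1*, *Tap2*, *Psmb9* and *Nlrc5* levels were low. Without it 9 of 10 genes were called higher, against 15.6% of all genes, and the slopes of *Tap1*, *Tap2* and *Psmb9* rose to 0.27, 0.36 and 0.30 (edgeR adjusted p = 0.0104, 0.0233 and 0.0343). *Nlrc5* alone stayed below the threshold, with a slope of 0.11 (standard error 0.06, edgeR adjusted p = 0.197). In the same fit the slopes of *H2-D1*, *H2-K1* and *Psmb8* were 0.60, 0.53 and 0.50, and that of *B2m*, 0.46, lay below that of *Psmb8*. With NTC replicate 1 kept and without KO replicate 4, 5 genes were called higher, against 19.5% of all genes, and *Erap1*, with a slope of 0.14, was lost, as it also was without a filter on low counts (slope 0.11, edgeR adjusted p = 0.201).

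**Figure D3:**
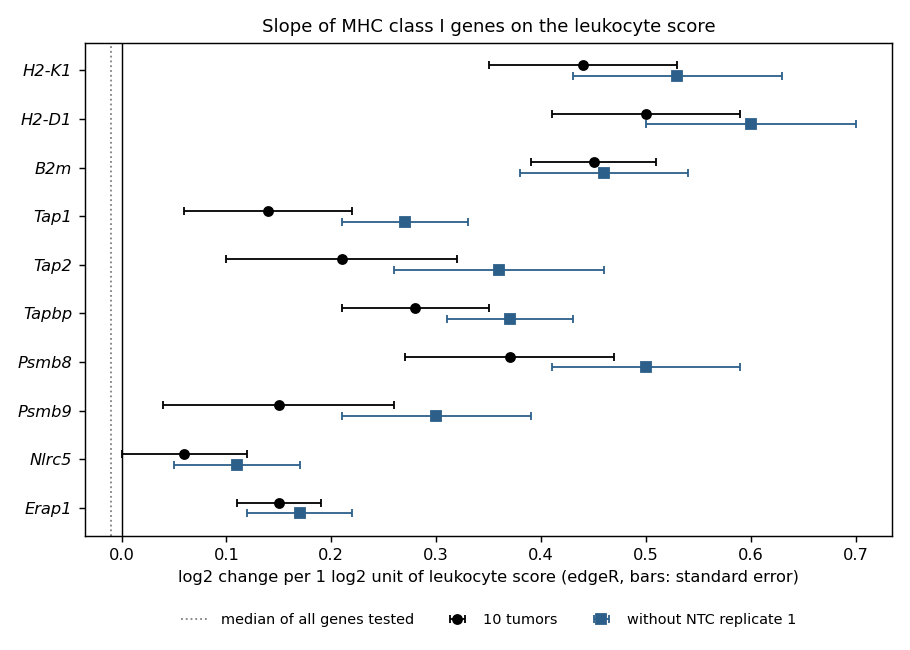
Slope of each MHC class I gene on the leukocyte score (horizontal axis, log2 change per 1 log2 unit) with its standard error from edgeR, over 10 tumors (black) and without NTC replicate 1 (blue). *H2-D1*, *B2m* and *H2-K1* lie at 0.44 to 0.50 over 10 tumors, *Nlrc5* at 0.06, and the dotted line is the median of all genes tested.

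**Figure D4:**
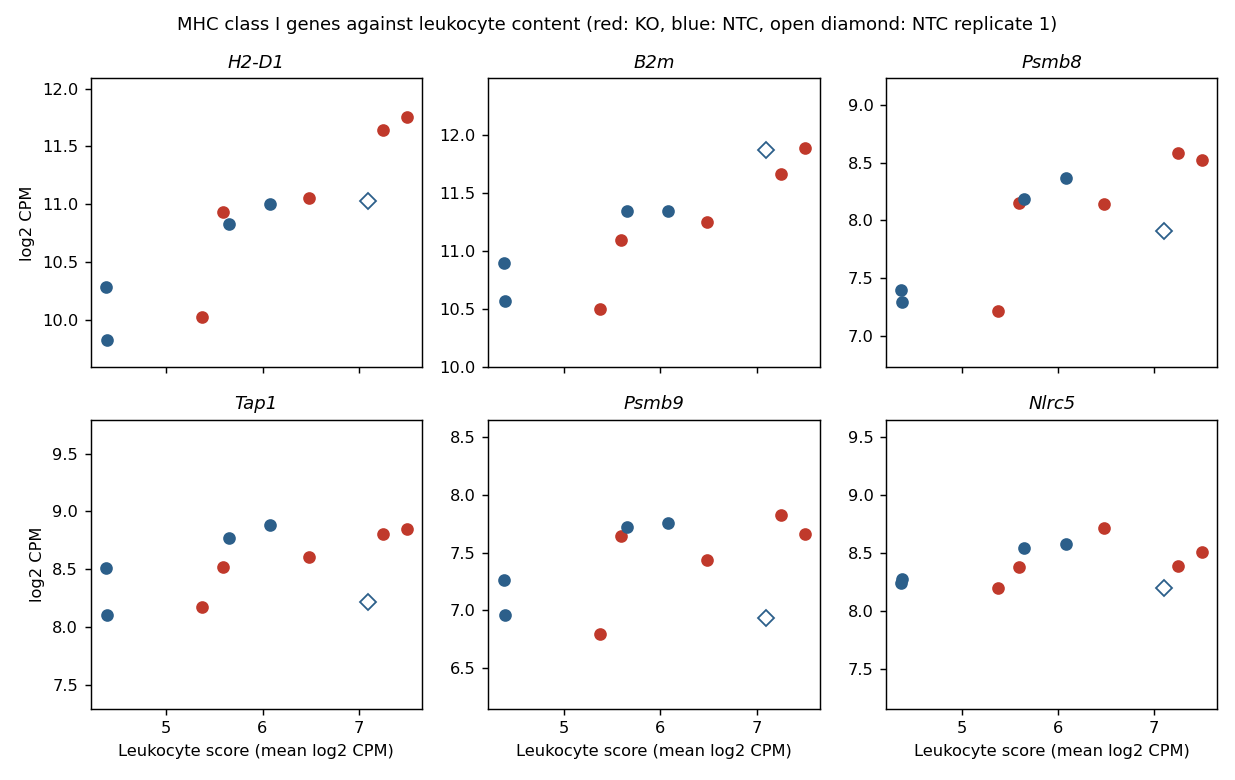
log2 CPM of 6 MHC class I genes (vertical axes, each spanning the same range) against the leukocyte score of each tumor, with KO in red, NTC in blue and NTC replicate 1 as an open diamond. For *Tap1*, *Psmb9* and *Nlrc5* that tumor lies below KO replicates 2 and 5, the tumors with a higher score.

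Leukocyte RNA did not vary alone. All 7 T cell, 4 NK cell, 6 macrophage, 7 fibroblast, 5 endothelial and 3 erythrocyte markers had called positive slopes on the score, against 22.6% of all genes, and 6 of 8 melanoma cell markers called negative ones, against 14.8%. Without NTC replicate 1, 3 of 5 endothelial and 0 of 3 erythrocyte markers were called higher by edgeR, against 15.6% of all genes. In that fit 5 of 8 melanoma cell markers were called lower, against 11.3%. All 3 erythrocyte markers had an unadjusted edgeR p under 0.05 there, as did 6285 of all 16078 genes. Macrophage markers summed to 746 to 3172 CPM in KO and 243 to 2879 CPM in NTC tumors, T cell markers to 27.0 to 164 and 16.5 to 73.6 CPM, and fibroblast markers to 926 to 5375 and 57.7 to 6050.2 CPM. The share of each cell type in the class I slopes was not tested. B cell markers summed to at most 7.27 CPM in any tumor.

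With the score in the model, the genotype difference of the class I genes was close to 0 for 9 of 10 genes, from -0.07 (*Tap1* and *Tap2*) to 0.06 (*Erap1*). *B2m* had -0.34 (standard error 0.13, edgeR unadjusted p = 0.0254, Benjamini-Hochberg adjusted p = 0.309), the sole one of the 10 with an unadjusted p under 0.05, against 12.8% of all genes. None of the 10 was called by edgeR, against 0.0632% of all genes tested, and none by DESeq2, against 0.721%. Without NTC replicate 1 all 10 values were negative, from -0.39 (*Tap2*) to -0.03 (*Erap1*). None was called by edgeR, against 0.0809% of all genes, and *B2m* (edgeR unadjusted p = 0.0374) and *Tap1* (-0.36, edgeR unadjusted p = 0.0171) had an unadjusted p under 0.05, against 9.13% of all genes. Except for *B2m*, the sign of each value turned when 1 or another single tumor was left out.

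Ratios within a library do not depend on the normalization factor. The exchange of proteasome subunits was read as the ratio of counts of each inducible subunit to the standard subunit it replaces. *Psmb8/Psmb5* was 6.96, 8.09, 5.33, 3.05 and 8.53 in KO tumors and 7.80, 3.10, 6.52, 3.91 and 6.50 in NTC tumors. *Psmb9/Psmb6* was 1.12, 1.16, 1.26, 0.727 and 1.07 in KO tumors and 0.784, 0.840, 1.43, 0.863 and 1.34 in NTC tumors. The groups overlapped for both, and the *Psmb8* ratio varied 2.80-fold between tumors and the *Psmb9* ratio 1.97-fold. Log2 differences, KO over NTC, were 0.19 (*Psmb8/Psmb5*), 0.04 (*Psmb9/Psmb6*) and 0.14 (*Psmb10/Psmb7*). None passed an exact two-sided permutation test (p = 0.603, 0.833 and 0.349, adjusted over the 3 ratios 0.833 for each).

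The heavy chain to light chain ratio was looked at after its values were seen and is given without a test. *H2-D1/B2m* was 0.873, 0.984, 0.892, 0.723 and 0.910 in KO tumors and 0.557, 0.655, 0.698, 0.599 and 0.787 in NTC tumors. Thus 4 of the 5 KO tumors lay above all NTC tumors. *H2-K1/B2m* was 0.735, 0.734, 0.791, 0.612 and 0.673 in KO tumors and 0.489, 0.581, 0.631, 0.538 and 0.711 in NTC tumors, and 3 KO tumors lay above all NTC tumors. Mean log2 differences were 0.41 for *H2-D1* and 0.27 for *H2-K1*. NTC replicate 1 had the lowest value of both ratios (0.557 and 0.489), and the differences are not given without it. Reads of *H2-D1* may be shared with near-identical class I genes: 13.9% of its 50-base stretches occur in other transcripts, with *H2-Q1* sharing more (6.68%) than any other gene, and 6.87% of those of *H2-K1*, most in *H2-D1*, whereas *B2m* shares none.

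**Figure D5:**
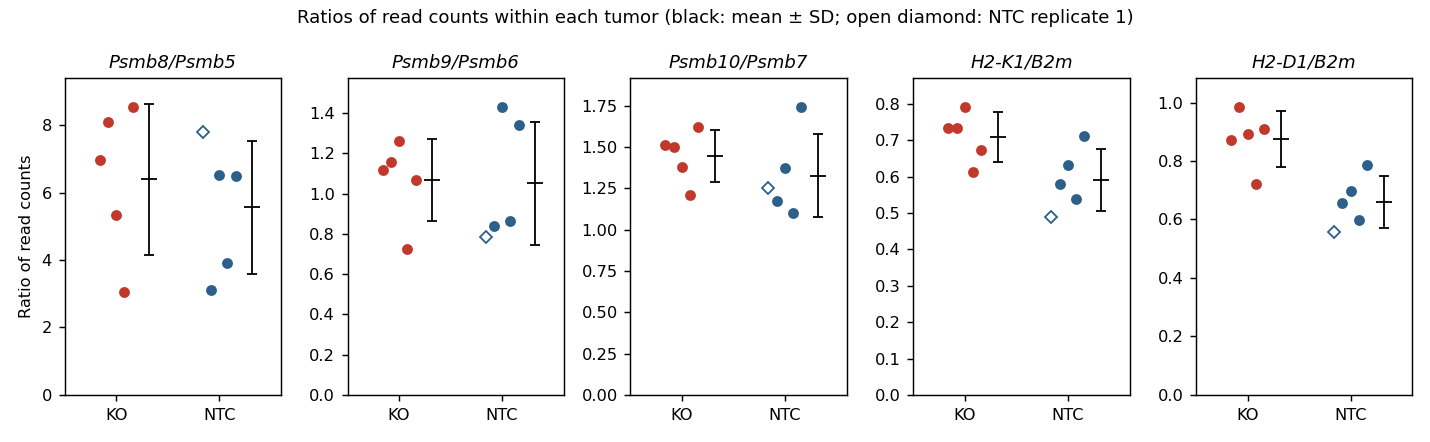
Ratios of read counts within each tumor (vertical axes from 0) for 3 inducible over standard proteasome subunits and for the heavy chains over *B2m*, 1 point per tumor with mean ± SD in black and NTC replicate 1 as an open diamond. Every ratio overlaps between groups. For *H2-D1/B2m*, chosen after its values were seen and not tested, 4 of 5 KO tumors exceed every NTC tumor and KO replicate 4 does not.

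The rest of the pathway was counted in lists. Of 15 other class I heavy chain genes, 12 were measured, and 11 rose with the leukocyte score by edgeR's adjusted p, against 22.6% of all genes tested. Their slopes ran from 0.30 (*H2-T22* and *Mr1*, which presents microbial metabolites) to 1.20 (*H2-M2*), with *H2-Q6* at 1.03, *H2-T24* at 1.01, *H2-Q7* at 0.94, *Cd1d1* (a lipid-presenting molecule) at 0.84, *H2-M3* at 0.63, *H2-T23* (Qa-1, a ligand of NK cell receptors) at 0.47, *H2-T10* at 0.42 and *H2-Q4* at 0.35. The median of the list was 0.55. Near-identical copies within this family make the split of reads between them uncertain.

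Of 8 other loading and trimming genes, 3 rose with the score (22.6% of all genes did), namely *Lnpep* (an endosomal trimming peptidase, 0.39), *Tapbpl* (the tapasin homologue TAPBPR, 0.20) and *Pdia3* (ERp57, which stabilizes the loading complex, 0.15). Without NTC replicate 1, 2 of the 8 were called higher, against 15.6% of all genes, and *Pdia3*, with 0.07 (edgeR adjusted p = 0.351), was lost. With every tumor in the fit, edgeR called 1 of the 8 lower, against 14.8% of all genes tested, and nothing is read from it. This gene was *Thop1*, which encodes a cytosolic peptidase that destroys peptides (slope -0.28). Of the 3 remaining inducible proteasome genes 1 was called higher, *Psme1*, a subunit of the PA28 cap (0.23), against 22.6% of all genes. *Psme2* had 0.15 and *Psmb10*, the third inducible catalytic subunit, 0.05. Without NTC replicate 1 *Psme2* was called as well (0.23, edgeR adjusted p = 0.0199), so 2 of 3, against 15.6% of all genes. *Psmb10* then had 0.14 (edgeR adjusted p = 0.148). Nothing is read from so few genes. None of the 14 standard core subunits was called by edgeR or DESeq2, 1 had an unadjusted p under 0.05 in each (46.3% of all genes did in edgeR and 47.5% in DESeq2), and the slopes of the 3 most abundant were 0.02 (*Psma3*), -0.03 (*Psma7*) and 0.02 (*Psmb1*). The median slope of the 14 was 0.02.

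Of 12 transcription regulators of class I genes 3 rose with the score, *Irf2* (0.41), *Nfkb1* (0.28) and *Rela* (0.19), the last 2 of which encode NF-κB subunits. That share lies near the 22.6% of all genes called higher, and nothing is read from it. The RFX, CREB1 and NF-Y genes, which encode the factors known to bind the X and Y boxes, had slopes from -0.07 to 0.00, and none of these 7 genes was called by edgeR or DESeq2 or had an unadjusted p under 0.05. Of 12 interferon-γ signaling genes 8 rose, against the same 22.6%: *Ifng* itself (0.78), *Ifngr1* (0.73), *Cxcl9* (0.68), *Cd274* (PD-L1, 0.67), *Irf8* (0.49), *Jak1* (0.34), *Jak2* (0.32) and *Ifngr2* (0.18). *Irf1*, an activator of class I genes, had 0.15 and did not pass in edgeR over 10 tumors, nor without NTC replicate 1 (0.21, edgeR adjusted p = 0.0751). In the comparison of KO with NTC tumors edgeR called no gene of these 6 lists, with 2 at an unadjusted p under 0.05 (8.85% of all genes were), while DESeq2 called 1, the heavy chain gene *H2-M2* (0.607% of all genes were called). In the absence of NTC replicate 1 edgeR again called none, and 10 genes had an unadjusted p under 0.05, against 20.1% of all genes.

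The genes whose log2 CPM most resembled the mean of the 10 class I genes over the 10 tumors were *H2-DMb1* (Pearson r = 0.983), *Ciita* (0.981), *Nod1* (0.978), *Plaat3* (0.978) and *H2-DMa* (0.976), among 15811 genes compared. *H2-DMa* and *H2-DMb1* encode the peptide exchanger of class II, and *Ciita* the class II transactivator. The r of *Ptprc* was 0.821 and of *Mlana*, a melanoma cell gene, 0.011. These values describe 10 libraries that share a normalization, and no test was made of them.

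Between the 10 genes themselves r ran from 0.34 (*B2m* and *Nlrc5*) to 0.99, with a median of 0.80. It was 0.96 for *Tap1* and *Tap2*, 0.94 for the divergent pair *Tap1* and *Psmb9*, and 0.97 for *Tapbp* and *Erap1*, which lie on different chromosomes. Reads of *Tap1* and *Psmb9* may be shared, since 9.71% of the 50-base stretches of *Psmb9* and 6.27% of those of *Tap1* occur in other transcripts, chiefly each other's. The strand setting of the counting is not given in the sources used here, so reads of *Tapbp* (22.4% shared, mostly with the antisense *Gm19412*), *Erap1* (13.7%, with *Cast*), *Tap2* (12.1%) and *Psmb8* (5.51%) may also include those of overlapping genes.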

How the data were processed

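The files hold 1 count per gene for each of 10 tumors. Per the labels and the study's methods, the authors checked reads with FastQC, trimmed them with Trimmomatic, aligned them to mm10 with HISAT2 and counted them with HTSeq, and deposited raw counts without normalization; the annotation and strand setting are not given in the sources used here. Library totals exclude summary rows (no feature, 17.5 to 42.9% of each file). Symbols on more than 1 row (107) were kept apart.

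Counts were fitted with edgeR 4.0.16 (R 4.3.3; TMM, filterByExpr, quasi-likelihood test, Benjamini-Hochberg over all genes tested), with genotype alone and with genotype plus leukocyte score. log2 CPM used a prior count of 2. Standard errors are the absolute log2 value divided by the square root of F. Proteasome ratios used exact permutation tests in Python 3.11.15 (numpy 2.4.6, pandas 2.3.3), and figures matplotlib 3.10.9. Alternatives were DESeq2 1.42.0, RLE normalization, no filter, a minimum of 10 counts in each tumor, calls at any fold change, the replicate number as a block, *Ptprc* alone, the score without the genotype term or without *Arhgdib*, 1 CPM added to the ratios, and leaving out each tumor. The fits were tested on simulated data. Positions and exon lengths came from GENCODE M21 on GRCm38. The 10 genes, the lists and the tests were chosen with earlier results of these data known. Named genes are the 10, the called genes of each class I list or its 3 most abundant where fewer were called, the 5 most similar genes, *Ptprc* and *Mlana*. Picked after values were seen were *H2-M2*, *Ccr7*, *Clec9a*, the count ratios to *B2m*, the *Irf1* slope, the X2-Y spacing and the grouping of RFX, CREB1 and NF-Y genes. Nothing in the labels says that tumors of a group share an animal, and p-values measure the spread between these tumors. One gene of the lists is not reported here by name.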

Additional observations from a re-analysis of the deposited data

Results flagged for a closer look

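With 5 tumors per group, the highest and lowest tumor were compared with the rest for the 10 genes, the 3 proteasome ratios and 3 library measures, 32 comparisons in all, of which chance places about 1 in 20 outside. *Tap2* in KO replicate 4 was 81.0 CPM, far from the other KO tumors (126 to 141 CPM). That tumor was also the lowest of all 10 for *B2m*, *Psmb8*, *Psmb9* and *Nlrc5*. In NTC replicate 1 the reads on genes came to 11896643, while the remaining NTC tumors had 24145795 to 28682130. Its TMM factor was 0.628, and theirs 1.02 to 1.11.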

How the results depend on the processing

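No gene of the 10 was called for KO against NTC, with or without the score, under any alternative run, including every tumor left out (0 to 0). Over the slopes, 5 to 9 genes were called when single tumors were left out. There were 9 without NTC replicate 1, against 15.6% of all genes, and 5 without KO replicate 4 (*Erap1* lost), against 19.5%. Without a filter on low counts 5 were called, and the equal-score value of *Psmb9* turned to 0.01. The replicate numbers do not pair the tumors (correlations of -0.287 to 0.633 over 5 numbers, with 2 KO and 1 NTC tumors best matched to their own number). With the replicate number as a block, 3 slopes were called (*H2-K1*, *H2-D1* and *B2m*, while *Tapbp*, *Psmb8* and *Erap1* had adjusted p of 0.233, 0.108 and 0.310 in edgeR), the slope of *Nlrc5* turned to -0.05 and the equal-score values of *H2-K1*, *Tap1*, *Tap2*, *Psmb8* and *Psmb9* to 0.05, 0.06, 0.16, 0.03 and 0.10, the other fits called 0 genes, and the ratio differences were 0.19, 0.04 and 0.14. Leaving out single tumors gave log2 ratio differences of 0.00 to 0.44 (*Psmb8/Psmb5*), -0.05 to 0.18 (*Psmb9/Psmb6*) and 0.07 to 0.24 (*Psmb10/Psmb7*). KO against NTC values that turned ran from -0.08 to 0.25 (*B2m*), -0.02 to 0.18 (*Tap1*), -0.02 to 0.31 (*Tap2*) and -0.01 to 0.13 (*Nlrc5*), and at equal score from -0.25 to 0.15 (*H2-K1*), -0.19 to 0.25 (*H2-D1*), -0.36 to 0.05 (*Tap1*), -0.39 to 0.13 (*Tap2*), -0.21 to 0.11 (*Tapbp*), -0.34 to 0.15 (*Psmb8*), -0.36 to 0.20 (*Psmb9*), -0.15 to 0.10 (*Nlrc5*) and -0.03 to 0.09 (*Erap1*). *B2m* did not turn (-0.43 to -0.21). Except where tumors were left out, the cause of these shifts was not tested. The score without *Arhgdib* was added after the data were seen and called 6 slopes. DESeq2 also called 6, and it called 3672 of all 15821 genes higher. The share of all genes called is not given for the fits with the block, without a filter or without *Arhgdib*. Their counts therefore cannot be set against it. Each group has 5 tumors, and whether the spread between tumors or the depth limits the precision was not tested.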

Other observations

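Of 12 type I interferon genes 8 had an unadjusted p under 0.05 for KO against NTC in edgeR's fit with the leukocyte score, against 12.8% of all genes, and all 12 log2 values were negative (-0.80 to -0.27, median -0.57). Of 13 interferon-γ-induced GTPase genes 6 had an unadjusted p under 0.05, with values from -0.56 to -0.12. Without the score in the fit, 2 of 12 and 2 of 13 had an unadjusted p under 0.05, against 8.85% of all genes, and the values lay on both sides of 0 (-0.84 to 0.06, median -0.35, and -0.38 to 0.24, median -0.15). Neither edgeR nor DESeq2 called a gene of these lists in either fit. At equal score the counts without NTC replicate 1 were 9 of 12 and 11 of 13, against 9.13% of all genes. The lists were chosen with earlier results of these data known.

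The nonclassical class I gene *H2-M2* had the largest fold change of the 10 genes and the other measured heavy chain genes. It measured 28.9, 37.4, 10.0, 3.60 and 31.6 CPM in KO replicates 1 to 5 and 9.16, 0.952, 0.915, 1.63 and 7.29 CPM in NTC replicates 1 to 5, so that 4 KO tumors exceeded every NTC tumor. The fitted log2 fold change was 2.54 (standard error 0.82) with an edgeR Benjamini-Hochberg adjusted p of 0.367, and 2.50 with an adjusted p of 0.0374 in DESeq2. At equal leukocyte score it was 1.54 (edgeR unadjusted p = 0.00578, Benjamini-Hochberg adjusted p = 0.187), and 12.8% of all genes had an unadjusted p under 0.05. The 5 dendritic cell markers summed to 15.7 to 45.8 CPM in KO and 9.80 to 25.3 CPM in NTC tumors, none at 0 in every tumor, and 2 had an unadjusted p under 0.05 for KO against NTC in edgeR (8.85% of all genes did), *Ccr7* (log2 fold change 1.96, edgeR adjusted p = 0.247) and *Clec9a* (1.89, edgeR adjusted p = 0.379). DESeq2 called 1 of the 5, against 0.607% of all genes. The 3 erythrocyte markers summed to 224 to 1457 CPM in KO and 67.6 to 399 CPM in NTC tumors, and all 3 had an unadjusted p under 0.05 in edgeR, with log2 fold changes of 1.68 to 1.94, but none was called by edgeR or DESeq2. Such rises were not particular to these lists. The median edgeR log2 fold change was 1.22 for the dendritic cell markers, 1.19 for the T cell markers and 0.99 for 7 MHC class II genes, whereas it was -0.85 for the neutrophil markers. The part of these cell types in the *H2-M2* result was not tested. *H2-M2* was singled out after its values were seen.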
